A study of Mus musculus with 9 samples.

Results

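Genes encoded by mitochondrial DNA were followed in heart RNA of mice with a Klf9 knock-in, 36 genes in all. They were all rows that the deposited tables place on chromosome MT, in tables of 26234 rows at 1 week, 24222 at 4 weeks and 30074 at 8 weeks. These comprised 13 protein genes, 2 rRNA genes and 21 tRNA genes. The phenylalanine tRNA, mt-Tf, was not analysed here. Klf9KI hearts carried the alphaMHC-Cre driver and the knock-in that the labels write as Klf9KI( Tg), and Wt-Cre hearts carried alphaMHC-Cre alone, so that every heart held the driver. The alphaMHC promoter acts in cardiomyocytes, whereas the RNA came from heart tissue with all its cell types. Each genotype had 3 libraries at 1, 4 and 8 weeks of age, 18 in all, and the labels name no strain, litter or sex. A separate assay sequenced the chromatin bound by Klf9, a zinc-finger transcription factor, in hearts of mice aged 12 to 14 weeks, with 1 library after 2 weeks of the pressure-loading operation TAC and 1 after a sham operation.

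Mitochondrial DNA is a small circle copied and transcribed inside the organelle by nuclear-encoded proteins such as the RNA polymerase Polrmt and the packaging factor Tfam. Both strands are transcribed as long precursors, which are cut at the tRNAs that lie between most of the protein and rRNA genes. Most of the freed mRNAs, though not all, are then polyadenylated and held at separate levels by proteins such as Lrpprc. In the heart these mRNAs are among the most abundant of all, since they encode the core of the respiratory chain that supplies contraction with ATP.

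A library held 17225388 to 32855383 counts at 1 week, 12086856 to 14890828 at 4 weeks, and 12543825 to 19912542 at 8 weeks. Klf9 itself, as the check of the labels, stood at 193, 222 and 183 CPM (counts scaled to the size of the library) in Klf9KI hearts and at 23.2, 21.9 and 17.2 CPM in Wt-Cre hearts at 1 week. The groups were also apart at 4 weeks, with 143, 179 and 167 CPM in Klf9KI hearts, against 113, 142 and 123 CPM in Wt-Cre hearts, although that difference did not pass the test (log2 fold change 0.37, SE 0.140, adjusted p = 0.111). At 8 weeks Klf9KI hearts had 108, 122 and 111 CPM and Wt-Cre hearts 43.8, 65.6 and 40.6 CPM (log2 fold change 1.19, SE 0.212, adjusted p = 0.00594). All 7 cardiomyocyte markers were present in every library. The titles speak of total RNA and the protocol of selection with poly-T beads, and whether the libraries kept strand is not stated, so counts of genes that overlap on opposite strands cannot be told apart. Xist, which is expressed in females, stood at 710.1 and 607 CPM in Klf9KI replicates 1 and 2 at 1 week and at most at 3.48 CPM in the other 16 libraries, so sex was not balanced at 1 week.

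Genes of mitochondrial DNA gave a larger share of all counts in Klf9KI hearts at 1 week and a smaller one at 4 and 8 weeks. At 1 week their share was 13.7, 14.0 and 14.1% in the Klf9KI hearts and 13.05, 12.47 and 11.01% in the Wt-Cre hearts. All Klf9KI hearts lay above all Wt-Cre hearts, at 14.0 ± 0.207% and 12.2 ± 1.05% (SD, n = 3 each), a difference of 1.81 percentage points.

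At 4 weeks the share was 19.6, 19.3 and 19.8% in Klf9KI hearts and 21.5, 20.2 and 24.9% in Wt-Cre hearts. Here all Klf9KI hearts lay below all Wt-Cre hearts, at 19.6 ± 0.297% and 22.2 ± 2.41%, a difference of -2.65 points, or -1.31 points without Wt-Cre replicate 3. At 8 weeks it was 20.6, 20.9 and 18.6% in Klf9KI hearts and 27.7, 29.7 and 28.7% in Wt-Cre hearts. The groups were 8.64 points apart, with 20.1 ± 1.24% in Klf9KI and 28.7 ± 0.985% in Wt-Cre hearts, and the Klf9KI mean was 0.699 of the Wt-Cre mean. The genotype difference at 8 weeks minus that at 1 week was -10.4 points. In tissue RNA of this kind, fewer cardiomyocytes and less mitochondrial RNA per cardiomyocyte cannot be told apart. With 3 libraries against 3, an exact permutation test cannot give a p below 0.1, and the share is a sum over the members, so no p is given for it.

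**Figure D1:**
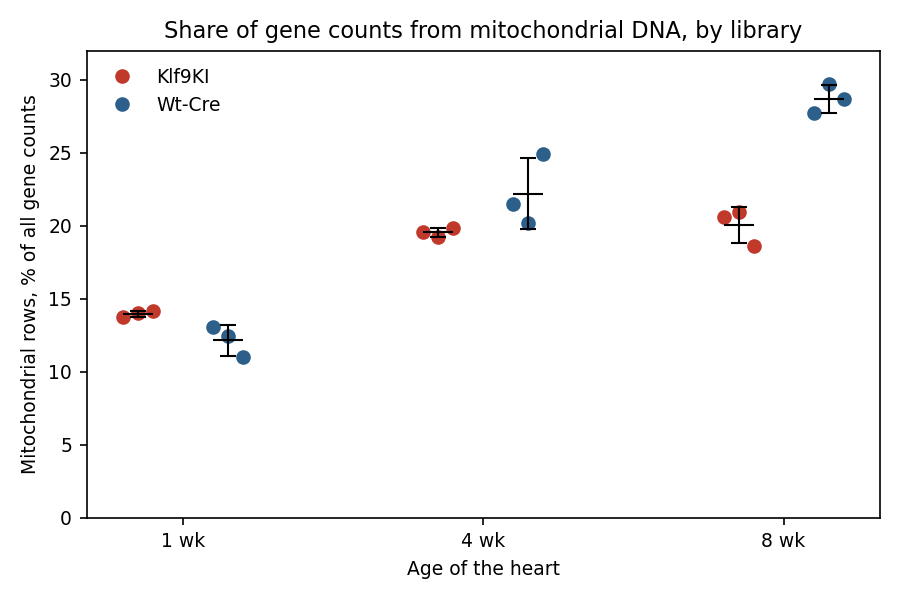
Share of all gene counts, in percent, that fell on mitochondrial rows in each library, by age, with Klf9KI left of Wt-Cre. Points are libraries and bars the mean ± SD of 3. The Klf9KI libraries lie above the Wt-Cre libraries at 1 week and below them at 4 and 8 weeks, where the Klf9KI means are 19.6 and 20.1% and the Wt-Cre means 22.2 and 28.7%.

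Markers of other cells moved at the same ages. The summed level of the 7 cardiomyocyte markers was 42083 to 48320 CPM in Klf9KI hearts and 57271 to 64629 CPM in Wt-Cre hearts at 4 weeks, and 30014 to 30641 against 42923 to 54517 CPM at 8 weeks. Of these markers Myh6, Ryr2 and Pln fell at 4 weeks, and Tnni3 and Pln fell at 8 weeks. The 6 fibroblast markers summed to 2467 to 3133 CPM in Klf9KI and 1191 to 2200.2 CPM in Wt-Cre hearts at 4 weeks (1 of 6 rose), and to 1387 to 2929 against 747 to 877 CPM at 8 weeks (3 of 6 rose). The 5 macrophage markers stood at 207 to 304 CPM in Klf9KI and 159 to 189.9 CPM in Wt-Cre hearts at 4 weeks (1 of 5 rose), and at 263 to 316 against 146 to 184 CPM at 8 weeks (3 of 5 rose). The 5 endothelial markers overlapped between genotypes at all 3 ages and none was called. The 4 smooth muscle markers summed to 106 to 142 CPM in Klf9KI and 405 to 1113 CPM in Wt-Cre hearts at 4 weeks, and to 92.1 to 193 against 215 to 576 CPM at 8 weeks, with Acta2 called lower at both ages. Acta2 was the only one of the 4 called and made up much of the sum. It averaged 90.3 CPM in Klf9KI and 662 CPM in Wt-Cre hearts at 4 weeks, and 71.5 against 268 CPM at 8 weeks. Of 5 atrial markers 4 had a row and 2 were tested at 4 and 8 weeks, and Kcnj3 fell at both, with summed levels of 11.2 to 15.3 CPM in Klf9KI and 37.7 to 63.6 CPM in Wt-Cre hearts at 4 weeks and 5.11 to 12.3 against 42.3 to 75.0 CPM at 8 weeks. The atrial sum in Wt-Cre hearts was mostly Kcnj3. This gene averaged 7.87 CPM in Klf9KI and 47.6 CPM in Wt-Cre hearts at 4 weeks, and 2.69 against 56.3 CPM at 8 weeks. At both ages 2 of the 4 atrial rows stood at 0 in at least 1 library. The 5 red blood cell markers overlapped at all 3 ages. At 1 week no marker of any of the 7 lists was called, where 1.68% of all genes tested were. Of all genes tested, 6.65% rose and 6.75% fell at 4 weeks, and 719 of 14483 rose and 5.52% fell at 8 weeks. The part of these markers in the mitochondrial results was not tested.

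Each gene was then tested across the whole table of its age with edgeR's quasi-likelihood test, and a gene is said to have risen or fallen where its Benjamini-Hochberg adjusted p over all genes was under 0.05. A filter on low counts left 29 members at 1 week, 30 at 4 weeks and 32 at 8 weeks, with all 13 protein genes and both rRNAs at every age and 14, 15 and 17 of the 21 tRNAs. At 1 week none of the 29 was called, where 1.68% of all genes tested were called. The members' median log2 fold change was 0.18 and that of all genes -0.0064, and 22 of 29 were positive. At an unadjusted p under 0.05 edgeR held 2 members at 1 week, both higher in Klf9KI hearts, and the DESeq2 Wald test called 1. For neither count is the share of all genes given here.

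At 4 weeks 10 of 30 members fell and none rose, against 13.4% of all genes called, 6.65% that rose and 6.75% that fell. The 10 were 3 protein genes and 7 tRNAs. At 8 weeks 14 of 32 members fell and none rose, against 10.5% of all genes called and 5.52% that fell. These were 9 protein genes, 1 rRNA and 4 tRNAs. The median log2 fold change of the members tested was -0.39 at 4 weeks and -1.09 at 8 weeks, where that of all genes was 8.9e-05 and 0.040, and 28 of 30 and 30 of 32 members were negative. mt-Cytb, mt-Ti and mt-Th were the 3 members called at both ages.

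The number of calls leaned on single libraries. The 8-week count was 1 (mt-Ti) without Wt-Cre replicate 1, 2 without Wt-Cre replicate 2, 9 without Wt-Cre replicate 3, 8 without Klf9KI replicate 1, 18 without Klf9KI replicate 2 and 9 without Klf9KI replicate 3, and at 4 weeks it was 6 without Klf9KI replicate 1 or without Klf9KI replicate 3. In each of these fits the called members kept a negative log2 fold change. With all 18 libraries in 1 fit, where the ages share an estimate of the spread, 2 members were called at 4 weeks and 22 at 8 weeks, all lower in Klf9KI hearts. The share of all genes called by genotype in that fit is not given here. A change in calls over the whole table thus cannot be told apart from one of the members. A p that misses the threshold does not show that a gene was at the same level in both genotypes.

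**Figure D2:**
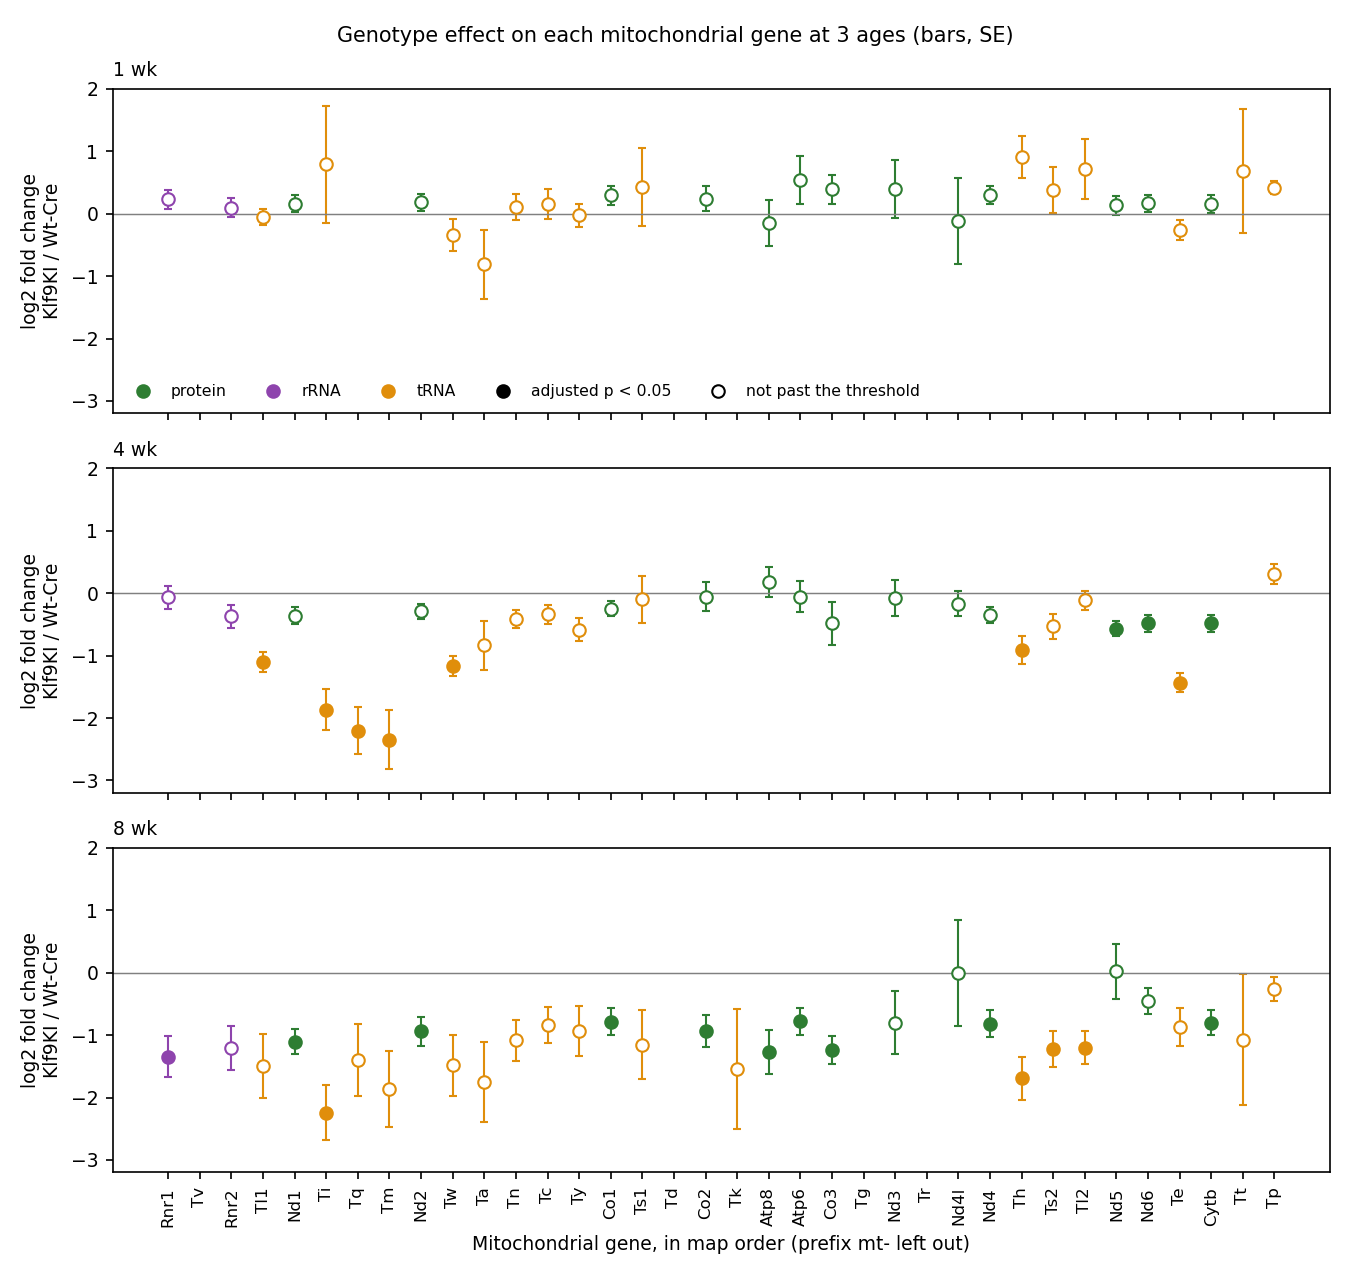
Log2 fold change (Klf9KI over Wt-Cre) of each mitochondrial gene in map order at 1, 4 and 8 weeks, with bars of 1 SE and colours for protein, rRNA and tRNA genes. Filled points passed an adjusted p of 0.05: 0 of 29 genes at 1 week, 10 of 30 at 4 weeks and 14 of 32 at 8 weeks, all of them below 0.

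Complex I, the NADH dehydrogenase at the entry of the respiratory chain, takes 7 of its membrane subunits from mitochondrial DNA. mt-Nd1 (MT, 2751 to 3707, plus strand), the subunit next to the quinone-binding site, stood at 23079, 18412 and 22429 CPM in Klf9KI hearts, against 44897, 46526 and 45866 CPM in Wt-Cre hearts at 8 weeks. Every Klf9KI heart held fewer than every Wt-Cre heart, and mt-Nd1 fell (log2 fold change -1.10, SE 0.207, adjusted p = 0.00788). At 4 weeks it had 17403, 17389 and 17181 CPM in Klf9KI hearts, against 21096, 19448 and 26016 CPM in Wt-Cre hearts. The groups were again apart, but the difference did not pass (log2 fold change -0.36, SE 0.134, adjusted p = 0.110). At 1 week the groups overlapped, at 21966 ± 1928 CPM in Klf9KI hearts, against 19656 ± 1902 CPM in Wt-Cre hearts (log2 fold change 0.16).

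mt-Nd2 (MT, 3914 to 4951) and mt-Nd4 (MT, 10167 to 11544) encode proton-pumping subunits of the membrane arm. At 8 weeks mt-Nd2 had 12322, 15761 and 9890.5 CPM in Klf9KI hearts, against 23281, 27207 and 22359 CPM in Wt-Cre hearts. The groups did not overlap and mt-Nd2 fell (log2 fold change -0.94, SE 0.234, adjusted p = 0.0280). For mt-Nd4 the values were 23568, 17878 and 22168 CPM in Klf9KI hearts, against 35003, 40269 and 36796 CPM in Wt-Cre hearts. It fell as well, with Klf9KI replicate 2 the lowest heart (log2 fold change -0.82, SE 0.212, adjusted p = 0.0333). At 4 weeks both genes lay lower in all Klf9KI hearts without passing the test, at log2 fold changes of -0.29 for mt-Nd2 and -0.34 for mt-Nd4. At 1 week mt-Nd4 lay higher in all Klf9KI hearts (17772 ± 691 CPM, against 14454 ± 2164 CPM in Wt-Cre hearts) and did not pass (log2 fold change 0.30, SE 0.142, adjusted p = 0.374), and mt-Nd2 overlapped (log2 fold change 0.18).

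mt-Nd5 (MT, 11742 to 13565), the third of the pumping subunits and the distal end of the membrane arm, fell at 4 weeks and not at 8 weeks. At 4 weeks it stood at 19034, 19687 and 17724 CPM in Klf9KI hearts, against 29625, 25921 and 28014 CPM in Wt-Cre hearts. The groups were well apart (log2 fold change -0.57, SE 0.119, adjusted p = 0.00949). At 8 weeks it stood at 8444, 22237 and 5096 CPM in Klf9KI hearts, against 9938, 14306 and 10998 CPM in Wt-Cre hearts. Klf9KI replicate 2 had the highest of the 6 values and the other two Klf9KI hearts had the lowest, so that the log2 fold change was 0.022 (SE 0.436, adjusted p = 0.983). Without that library mt-Nd5 passed the test at -0.80 (adjusted p = 0.0336). At 1 week its groups overlapped, with 5296 ± 949 CPM in Klf9KI hearts, against 4816 ± 717 CPM in Wt-Cre hearts.

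mt-Nd6 (MT, 13552 to 14070), the only protein gene on the minus strand, shares 14 bases with the end of mt-Nd5 on the other strand. It had 5032, 4814 and 5184 CPM in Klf9KI hearts at 4 weeks, against 6408, 6690.3 and 7928 CPM in Wt-Cre hearts. All Klf9KI hearts were lower and mt-Nd6 fell (log2 fold change -0.48, SE 0.130, adjusted p = 0.0305). By 8 weeks it had 6351, 5799.8 and 5267 CPM in Klf9KI hearts, against 6581, 8925 and 8279.9 CPM in Wt-Cre hearts. The highest Klf9KI heart lay close under the lowest Wt-Cre heart, and the difference did not pass (log2 fold change -0.45, SE 0.212, adjusted p = 0.220).

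The small subunit genes mt-Nd3 (MT, 9459 to 9806) and mt-Nd4l (MT, 9877 to 10173) varied widely between libraries of 1 group. At 8 weeks mt-Nd4l had 28.8, 234 and 17.1 CPM in Klf9KI hearts, against 44.5, 136 and 99.3 CPM in Wt-Cre hearts. Klf9KI replicate 2, the library that was also highest in mt-Nd5, stood far above the other two, and the log2 fold change was 8.1e-05 (SE 0.850), or -2.02 (adjusted p = 0.103) without it. mt-Nd3 had 212, 71.7 and 461 CPM in Klf9KI hearts, against 287, 476 and 537 CPM in Wt-Cre hearts. Its groups overlapped, with the lowest value again in Klf9KI replicate 2 (log2 fold change -0.80, SE 0.505, adjusted p = 0.365). Without Klf9KI replicate 3, its highest Klf9KI heart, mt-Nd3 passed the test at -1.61 (adjusted p = 0.0277), and without Klf9KI replicate 2 it stood at -0.37 (adjusted p = 0.664). At 1 and 4 weeks the log2 fold changes were 0.39 and -0.076 for mt-Nd3 and -0.12 and -0.17 for mt-Nd4l, none of them called.

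Cytochrome b, encoded by mt-Cytb (MT, 14145 to 15288), is the single mitochondrial-encoded protein of complex III, which passes electrons on to cytochrome c. At 4 weeks mt-Cytb stood at 25529, 23856 and 24788 CPM in Klf9KI hearts, against 32914, 30412 and 40185 CPM in Wt-Cre hearts. The groups did not overlap (log2 fold change -0.48, SE 0.132, adjusted p = 0.0346). At 8 weeks it stood at 28671, 27163 and 24562 CPM in Klf9KI hearts, against 43524, 49973 and 46647 CPM in Wt-Cre hearts. It was lower in every Klf9KI heart and fell (log2 fold change -0.80, SE 0.204, adjusted p = 0.0304). At 1 week the hearts overlapped, at 21453 ± 1119 CPM in Klf9KI hearts, against 19247 ± 2095 CPM in Wt-Cre hearts (log2 fold change 0.16).

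Complex IV, the cytochrome c oxidase that reduces oxygen, has its catalytic core from mt-Co1, mt-Co2 and mt-Co3. mt-Co1 (MT, 5328 to 6872), which carries the oxygen-reducing centre, had the highest count of all members, with 31.7 to 37.4% of mitochondrial counts at 1 and 4 weeks and 32.03 to 34.99% at 8 weeks. At 8 weeks it stood at 65529, 66964 and 50593 CPM in Klf9KI hearts, against 103539, 110832 and 101084 CPM in Wt-Cre hearts. Every Klf9KI heart was lower and mt-Co1 fell (log2 fold change -0.78, SE 0.214, adjusted p = 0.0403). At 1 week the order was the opposite, with 48047, 47106 and 51221 CPM in Klf9KI hearts, against 45898, 39225 and 34341 CPM in Wt-Cre hearts, all Klf9KI hearts above, without passing the test (log2 fold change 0.29, SE 0.148, adjusted p = 0.413). At 4 weeks all Klf9KI hearts lay below and the difference did not pass (log2 fold change -0.25, SE 0.120, adjusted p = 0.217).

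mt-Co2 (MT, 7013 to 7696), the subunit that receives electrons from cytochrome c, had 5906, 3357 and 4246 CPM in Klf9KI hearts, against 10005, 8440.0 and 7309.6 CPM in Wt-Cre hearts at 8 weeks. It fell, and again Klf9KI replicate 2 was lowest (log2 fold change -0.93, SE 0.253, adjusted p = 0.0397). mt-Co3 (MT, 8607 to 9390) had 4803, 3450.5 and 3865 CPM in Klf9KI hearts, against 11407, 8307 and 8942 CPM in Wt-Cre hearts. Its groups lay far apart, and of the 13 protein genes it had the smallest adjusted p at this age (log2 fold change -1.24, SE 0.229, adjusted p = 0.00701). At 1 and 4 weeks the log2 fold changes were 0.24 and -0.053 for mt-Co2 and 0.39 and -0.48 for mt-Co3, all with overlapping groups.

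The ATP synthase, which makes ATP as protons flow back through it, has 2 membrane subunits from mt-Atp8 (MT, 7766 to 7969) and mt-Atp6 (MT, 7927 to 8607), whose rows share 43 bases. At 8 weeks mt-Atp6 had 3602, 2646 and 2683 CPM in Klf9KI hearts, against 5332, 5268 and 4706 CPM in Wt-Cre hearts. All Klf9KI hearts were lower (log2 fold change -0.78, SE 0.213, adjusted p = 0.0410). mt-Atp8 was far rarer, with 10.3, 10.8 and 4.21 CPM in Klf9KI hearts, against 20.6, 24.8 and 15.8 CPM in Wt-Cre hearts. It fell with groups apart (log2 fold change -1.27, SE 0.347, adjusted p = 0.0408). At 4 weeks mt-Atp8 had 1 of the 2 positive log2 fold changes among the members (0.18) and mt-Atp6 was at -0.054, and at 1 week they were at -0.15 and 0.55, with overlap in all 4 cases. Without Wt-Cre replicate 2 the 1-week value of mt-Atp6 passed the test at 1.01 (adjusted p = 0.0171).

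Both rRNAs build the mitochondrial ribosome. mt-Rnr1 (MT, 70 to 1024), of the small subunit, stood at 2467, 977 and 2021 CPM in Klf9KI hearts, against 4423, 5932 and 3506 CPM in Wt-Cre hearts at 8 weeks. Klf9KI replicate 2 was lowest, no value overlapped, and mt-Rnr1 fell (log2 fold change -1.34, SE 0.334, adjusted p = 0.0276). mt-Rnr2 (MT, 1094 to 2675), of the large subunit, stood at 6715, 5582 and 4079 CPM in Klf9KI hearts, against 14266, 17365 and 6159 CPM in Wt-Cre hearts. The third Wt-Cre heart lay under the highest Klf9KI heart, and the difference missed the threshold by little (log2 fold change -1.21, SE 0.352, adjusted p = 0.0521). mt-Rnr2 passed by the DESeq2 Wald test (adjusted p = 0.00329), without the filter on low counts (adjusted p = 1.72e-06) and without Wt-Cre replicate 3 (log2 fold change -1.54, adjusted p = 0.0157). At 4 weeks mt-Rnr1 averaged 2075 ± 196 CPM in Klf9KI hearts, against 2174 ± 597 CPM in Wt-Cre hearts, and mt-Rnr2 4384 ± 493 against 5674 ± 1448 CPM, both with overlap and not called. At 1 week the log2 fold changes were 0.23 and 0.10. With sex as a covariate both turned negative, at -0.14 for mt-Rnr1 and -0.13 for mt-Rnr2, as did mt-Co3 at -0.083, while mt-Atp8 and mt-Nd4l turned positive at 0.22 and 0.85, none of them called. Leaving out both libraries with Xist turned the same 5 signs. How well the selection on poly-A captured rRNAs and tRNAs was not measured, so their levels are compared between genotypes and not with mRNAs.

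**Figure D3:**
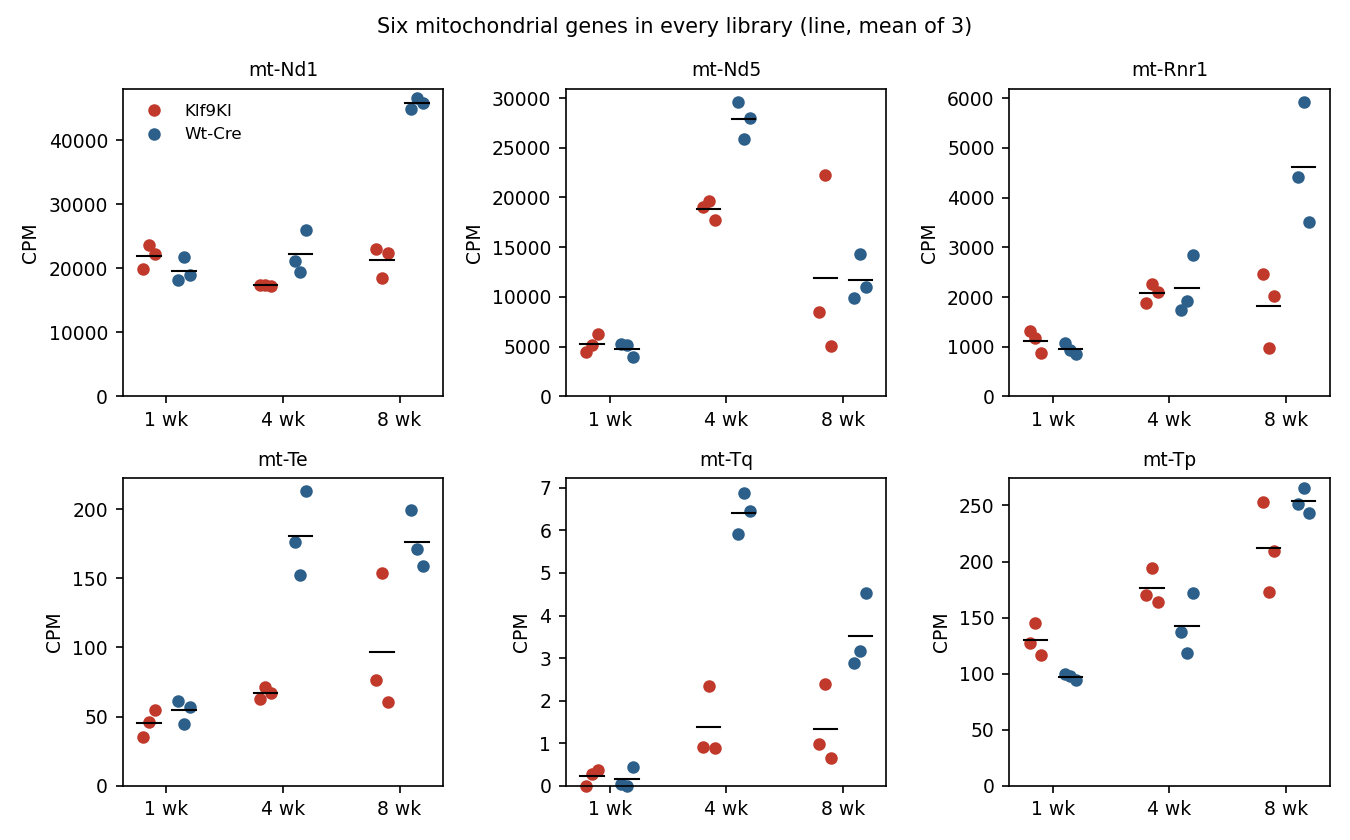
CPM, normalised within each age, of mt-Nd1, mt-Nd5, mt-Rnr1, mt-Te, mt-Tq and mt-Tp in every library at 1, 4 and 8 weeks, with Klf9KI left of Wt-Cre and a line at the mean of 3. The Klf9KI hearts lie under the Wt-Cre hearts in mt-Nd1 and mt-Rnr1 at 8 weeks and in mt-Te and mt-Tq at 4 weeks, and 1 Klf9KI heart with 22237 CPM stands above all others in mt-Nd5 at 8 weeks.

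The tRNA genes supply the tRNAs of the mitochondrial ribosome, 1 amino acid each. Their rows are 59 to 75 bases long and most abut other genes, so counts there can come from precursors or neighbouring transcripts as well as from tRNAs. Over the 18 libraries the highest were mt-Tc (48255 counts), mt-Tp (48120 counts), mt-Tn (27934 counts) and mt-Te (27385 counts), all on the minus strand. The lowest were mt-Tg, mt-Td, mt-Tv, mt-Tr and mt-Tk with 24, 40, 46, 64 and 114 counts. The first 4 of these were tested at no age and mt-Tk at 8 weeks alone. mt-Tq and mt-Tm did not pass the filter at 1 week, and mt-Tt did not at 4 weeks.

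At 4 weeks 7 tRNAs fell in Klf9KI hearts. The glutamate tRNA mt-Te (MT, 14071 to 14139, minus strand), which lies between mt-Nd6 and mt-Cytb, had 62.6, 71.3 and 67.0 CPM in Klf9KI hearts, against 176, 152 and 214 CPM in Wt-Cre hearts. The groups lay far apart, and mt-Te had the smallest adjusted p of all members at this age (log2 fold change -1.43, SE 0.148, adjusted p = 0.000116). A cluster of 3 tRNA genes between mt-Nd1 and mt-Nd2 was lower throughout. mt-Ti (isoleucine) had 1.42, 2.09 and 1.97 CPM in Klf9KI hearts, against 4.28, 8.60 and 7.20 CPM in Wt-Cre hearts. The groups did not overlap (log2 fold change -1.86, SE 0.329, adjusted p = 0.00365). mt-Tq (glutamine, minus strand) had 0.898, 2.35 and 0.883 CPM in Klf9KI hearts, against 5.90, 6.88 and 6.46 CPM in Wt-Cre hearts, and mt-Tm (methionine) had 0.898, 1.24 and 1.29 against 2.14, 8.43 and 7.04 CPM. Both were lower in all Klf9KI hearts (log2 fold change -2.20, adjusted p = 0.00320 for mt-Tq, and -2.35, adjusted p = 0.00820 for mt-Tm), at levels of few CPM.

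The leucine tRNA mt-Tl1, which follows mt-Rnr2, had 26.8, 33.4 and 36.0 CPM in Klf9KI hearts at 4 weeks, against 64.1, 60.4 and 82.8 CPM in Wt-Cre hearts. The groups were apart (log2 fold change -1.11, SE 0.160, adjusted p = 0.00114). The tryptophan tRNA mt-Tw, next to mt-Nd2, had 11.9, 14.4 and 17.2 CPM in Klf9KI hearts, against 31.7, 35.0 and 31.4 CPM in Wt-Cre hearts. It was lower in every Klf9KI heart (log2 fold change -1.17, SE 0.162, adjusted p = 0.000896), as was the histidine tRNA mt-Th behind mt-Nd4, with 4.25 ± 0.703 CPM in Klf9KI hearts, against 8.02 ± 0.767 CPM in Wt-Cre hearts (log2 fold change -0.91, SE 0.230, adjusted p = 0.0238). The proline tRNA mt-Tp was the other member with a positive value at 4 weeks, at 170.5, 194 and 164 CPM in Klf9KI hearts, against 137, 118 and 172 CPM in Wt-Cre hearts. Its groups overlapped (log2 fold change 0.31, SE 0.155, adjusted p = 0.231).

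At 8 weeks 4 tRNAs fell. mt-Ti had 1.55, 0.818 and 2.40 CPM in Klf9KI hearts, against 6.89, 9.66 and 6.21 CPM in Wt-Cre hearts. Its groups were apart (log2 fold change -2.24, SE 0.447, adjusted p = 0.0107). The other three, mt-Th, mt-Ts2 (serine) and mt-Tl2 (leucine), lie side by side between mt-Nd4 and mt-Nd5. mt-Th had 11.6, 5.79 and 5.27 CPM in Klf9KI hearts, against 33.3, 22.7 and 17.6 CPM in Wt-Cre hearts. No value overlapped (log2 fold change -1.69, SE 0.350, adjusted p = 0.0126). mt-Ts2 fell to 8.80 ± 2.05 CPM in Klf9KI hearts, against 20.6 ± 6.14 CPM in Wt-Cre hearts (log2 fold change -1.22, SE 0.293, adjusted p = 0.0236). mt-Tl2 fell to 42.1 ± 14.4 CPM in Klf9KI hearts, against 96.7 ± 18.3 CPM in Wt-Cre hearts (log2 fold change -1.20, SE 0.269, adjusted p = 0.0176). The remaining 13 tRNAs tested had negative values that did not pass, from -1.87 for mt-Tm to -0.26 for mt-Tp. mt-Te was one of them, at 76.6, 154 and 60.7 CPM in Klf9KI hearts, against 199.7, 171 and 159 CPM in Wt-Cre hearts, with Klf9KI replicate 2 close to the Wt-Cre values (log2 fold change -0.86, SE 0.305, adjusted p = 0.102).

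At 1 week no tRNA was called. The smallest adjusted p of all members belonged to mt-Tp, with 128, 145 and 117 CPM in Klf9KI hearts, against 99.3, 97.9 and 94.1 CPM in Wt-Cre hearts. All Klf9KI hearts were higher and the value stayed just outside the threshold (log2 fold change 0.42, SE 0.104, adjusted p = 0.0564). mt-Te had 45.4 ± 9.88 CPM in Klf9KI hearts, against 54.4 ± 8.46 CPM in Wt-Cre hearts with overlap (log2 fold change -0.26). The cysteine tRNA mt-Tc and the asparagine tRNA mt-Tn overlapped at 1 and 8 weeks, and mt-Tc at 4 weeks as well, with log2 fold changes of 0.16, -0.34 and -0.84 for mt-Tc and 0.11, -0.41 and -1.09 for mt-Tn at 1, 4 and 8 weeks, none called. The alanine, tyrosine, serine and threonine tRNAs mt-Ta, mt-Ty, mt-Ts1 and mt-Tt were called at no age either, with log2 fold changes at 8 weeks of -1.75, -0.93, -1.15 and -1.07.

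Within the mitochondrial counts the shares of the 3 classes overlapped between genotypes at every age. Protein genes held 96.4 to 97.5% of them in Klf9KI and 96.4 to 97.2% in Wt-Cre hearts at 1 week, 95.9 to 96.7% against 95.9 to 97.0% at 4 weeks, and 94.8 to 96.1% against 92.8 to 96.5% at 8 weeks. The rRNA share was 2.20 to 3.23% in Klf9KI and 2.50 to 3.17% in Wt-Cre hearts at 1 week, 3.07 to 3.78% against 2.69 to 3.78% at 4 weeks, and 3.43 to 4.77% against 3.18 to 6.74% at 8 weeks. The tRNA share was 0.304 to 0.397% in Klf9KI and 0.332 to 0.398% in Wt-Cre hearts at 1 week, 0.281 to 0.330% against 0.316 to 0.353% at 4 weeks, and 0.367 to 0.464% against 0.332 to 0.507% at 8 weeks.

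Some shares of the makeup did separate the groups, by their values alone and without a test. At 4 weeks the 3 complex IV genes took 41.2 ± 0.405% of mitochondrial counts in Klf9KI hearts and 38.5 ± 0.709% in Wt-Cre hearts, and the 7 complex I genes took 39.9 ± 0.152% against 41.8 ± 1.23%. All Klf9KI hearts were higher in the complex IV share and lower in the complex I share. Most of the complex IV share was mt-Co1 alone, at 37.0 ± 0.456% in Klf9KI and 34.6 ± 0.481% in Wt-Cre hearts. The shares of both complexes overlapped at 1 and 8 weeks. The genes of the minus strand, mt-Nd6 with 8 tRNAs, took 3.57 ± 0.170% in Klf9KI hearts and 2.79 ± 0.311% in Wt-Cre hearts at 8 weeks, with no overlap, and overlapped at 1 and 4 weeks. Most of this share was mt-Nd6 alone, at 3.22 ± 0.166% in Klf9KI and 2.47 ± 0.328% in Wt-Cre hearts at 8 weeks. Whether the libraries kept strand is not stated, so counts in these rows may come from transcripts of either strand.

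To ask which members moved against the others, the fit was repeated with the summed counts of the 13 protein genes as the library size. No protein gene and no rRNA was called at any age. Each protein gene is itself part of that total, so a shift of the largest ones, such as mt-Co1, is partly cancelled. At 1 week none of the 29 members was called (6.33% of all genes were), with 2 at an unadjusted p under 0.05 and 1 called without the filter on low counts. The shares of all genes that go with the last 2 counts are not given here. At 4 weeks 7 of 30 were called, where 21% of all genes were, 18.6% higher and 2.44% lower. The 6 that fell were mt-Te (log2 fold change -1.08, SE 0.145, adjusted p = 0.000882), mt-Tq, mt-Tm, mt-Ti, mt-Tw and mt-Tl1, with log2 fold changes of -1.87, -2.02, -1.54, -0.84 and -0.76 for those after mt-Te. mt-Tp held 0.0914, 0.104 and 0.0896% of mitochondrial counts in Klf9KI hearts at 4 weeks and 0.0601, 0.0562 and 0.0642% in Wt-Cre hearts. The Klf9KI hearts were all higher, and mt-Tp rose against the protein genes (log2 fold change 0.66, SE 0.1504, adjusted p = 0.0134).

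At 8 weeks 3 of 32 members were called relative to the protein genes, where 52.8% of all genes were, 51.4% higher and 1.35% lower. mt-Ti fell (log2 fold change -1.38, SE 0.494, adjusted p = 0.0357), mt-Th fell (log2 fold change -0.91, SE 0.348, adjusted p = 0.0465) and mt-Tp rose (log2 fold change 0.56, SE 0.204, adjusted p = 0.0373). Scaling to a mitochondrial total that was lower in Klf9KI hearts raises nuclear genes, so the 52.8% follows from the scaling. With so many genes called, the adjustment is more lenient. The unadjusted p were 0.0172, 0.0241 and 0.0182, where mt-Tm at 0.0111 had adjusted p = 0.0792 in the edgeR fit with TMM scaling. At 4 weeks, with 21% called, the same holds to a lesser degree. mt-Tp held 0.132, 0.0903 and 0.133% of mitochondrial counts in Klf9KI and 0.0802, 0.0768 and 0.0801% in Wt-Cre hearts, again with all Klf9KI hearts higher. Set against mt-Nd1, mt-Nd2, mt-Nd5, mt-Nd6 and mt-Cytb, the 5 protein genes outside a stretch copied in the nuclear genome, mt-Ti alone stayed past the threshold at 8 weeks (adjusted p = 0.0417), with mt-Th and mt-Tp at adjusted p = 0.0590 and 0.0613. The counts depended on single libraries: at 8 weeks 0 were called without Wt-Cre replicate 1 or 2 and 1 without Klf9KI replicate 1, and at 4 weeks 2 without Klf9KI replicate 1, 4 without replicate 2 and 3 without replicate 3. At 1 week 4 were called without Wt-Cre replicate 2 and 1 without Klf9KI replicate 3.

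The change with age was read in 1 fit of all 18 libraries, where age and any batch that follows age cannot be told apart. In Wt-Cre hearts 26 of 32 members rose at 4 against 1 week and none fell, where 35% of all genes were called and 17.4% rose. mt-Nd5 stood at 3947 ± 597, 28815 ± 2127 and 13871 ± 2662 CPM at 1, 4 and 8 weeks in Wt-Cre hearts (SD, n = 3 each, CPM scaled over all 18). It rose to 4 weeks (log2 fold change 2.87, SE 0.370, adjusted p = 1.12e-05) and was the single member called lower at 8 than at 4 weeks (log2 fold change -1.05, SE 0.348, adjusted p = 0.0412). That call was lost, at adjusted p = 0.0514 to 0.131, when any Wt-Cre or Klf9KI library of 4 weeks or any Wt-Cre library of 8 weeks was left out, and at 0.0684 without the filter on low counts. mt-Nd4l stood at 17.4 ± 4.501, 306 ± 77.5 and 110.1 ± 54.3 CPM and rose at the first step (log2 fold change 4.13, SE 0.940, adjusted p = 0.00419). mt-Tm and mt-Tq had the largest fitted rises, of 6.06 and 5.61 on the log2 scale, at 1-week levels of 0.0837 ± 0.0404 and 0.133 ± 0.196 CPM, so near 0 that these folds depend on the prior count of the fit. mt-Te rose by 2.07.

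At 8 against 4 weeks 18 members rose and 1 fell in Wt-Cre hearts, where 19.1% of all genes were called, 11% higher and 8.09% lower. mt-Nd1 behaved unlike mt-Nd5, with 16117 ± 1711, 22941 ± 3477 and 54050.3 ± 778 CPM at the 3 ages. Its larger step was the second (log2 fold change 0.51, SE 0.149, adjusted p = 0.0114 to 4 weeks, log2 fold change 1.24, SE 0.151, adjusted p = 0.000118 to 8 weeks). mt-Co1 rose by 1.37 and then 0.56, mt-Cytb by 1.18 and 0.63, and mt-Rnr2 by 1.48 and 1.35 on the log2 scale. All of these passed the test.

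In Klf9KI hearts 15 of 32 members rose at 4 against 1 week (33.8% of all genes called, 16.7% that rose), with mt-Nd5 at 4372 ± 824, 19549 ± 964 and 13949.6 ± 10806 CPM at the 3 ages. At 8 against 4 weeks none of the 32 was called in Klf9KI hearts by edgeR (10.5% of all genes), with 10 at an unadjusted p under 0.05, all positive, and a median log2 fold change of 0.43. mt-Nd1 stood at 18118 ± 1665, 18002 ± 94.3 and 24723 ± 2669 CPM in Klf9KI hearts (log2 fold change 0.46, SE 0.149, adjusted p = 0.0538 at the second step). The DESeq2 Wald test called 8 members at that step. With single libraries left out, edgeR called 8 without Klf9KI replicate 2 of 8 weeks (6 higher, 2 lower) and 3 without Klf9KI replicate 3 of 8 weeks. It called 1 without Wt-Cre replicate 2 of 1 week, Wt-Cre replicate 3 of 4 weeks, or Wt-Cre replicate 2 or 3 of 8 weeks. The share of all genes is not given here for these counts or for the 10 at an unadjusted p. Such counts thus cannot be told apart from a change over the whole table.

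The genotype effect differed between 8 weeks and 1 week in 15 of 32 members, all more negative at 8 weeks, where 9.45% of all genes were called in that test and 5.53% were more negative. They were 8 protein genes, both rRNAs and 5 tRNAs. For mt-Nd1 the effect was lower at 8 weeks than at 1 week by a log2 difference of -1.30 (adjusted p = 0.000661), and for mt-Rnr1 by -1.61 (adjusted p = 0.00994). The count was 9 without Klf9KI replicate 2 at 1 week, Wt-Cre replicate 3 at 1 week or Wt-Cre replicate 1 at 8 weeks, and 9 with sex as a covariate. Between 4 weeks and 1 week no member was called by edgeR (1.15% of all genes; 11 at an unadjusted p under 0.05, all negative) and 5 by DESeq2. Between 8 and 4 weeks none was called (0.48% of all genes, with 10 members at an unadjusted p under 0.05, all negative) and DESeq2 called 2. The shares of all genes at an unadjusted p, by DESeq2, with a library left out or with the sex covariate are not given here. Those counts thus cannot be told apart from a change over the whole table.

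Levels of different protein genes are set side by side here after division by gene length. That division does not correct for capture by poly-A selection, for overlapping rows or for reads shared with a nuclear copy, so the order is a description. On the scale of CPM per kilobase at 8 weeks, mt-Co1 stood at 39501 ± 5868 in Klf9KI and 68059 ± 3282 in Wt-Cre hearts, mt-Cytb at 23426 ± 1817 and 40834 ± 2819, and mt-Nd1 at 22264 ± 2641 and 47819.6 ± 856. At the low end mt-Atp8 stood at 41.5 ± 18.1 in Klf9KI and 99.97 ± 22.0 in Wt-Cre hearts, mt-Nd4l at 315 ± 412 and 314 ± 156, and mt-Nd3 at 713 ± 566 and 1245 ± 374 (SD, n = 3 each). Among the others mt-Nd5 stood at 6538 ± 4981 in Klf9KI and 6440.4 ± 1249 in Wt-Cre hearts, mt-Co2 at 6584 ± 1891 and 12551 ± 1979, and mt-Nd6 at 11187 ± 1045 and 15277 ± 2333. The 3 lowest protein genes are neighbours or near neighbours on the map, and in Klf9KI hearts the SD of mt-Nd4l exceeded its mean.

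**Figure D4:**
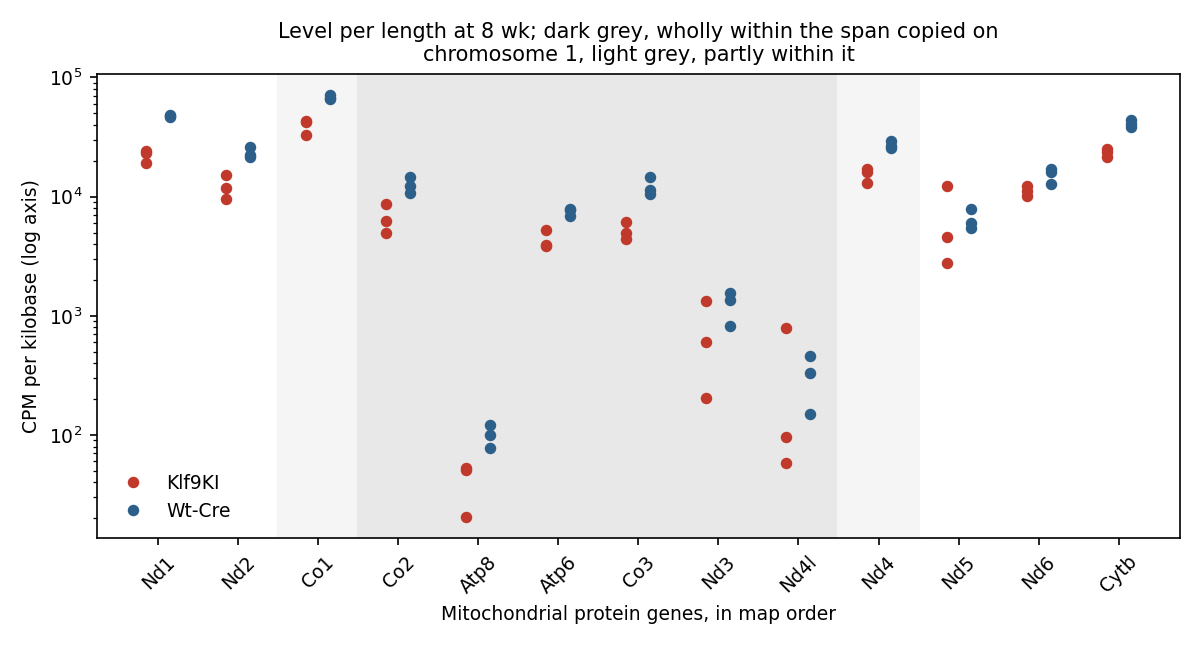
CPM per kilobase of gene length, on a log axis, of the 13 protein genes in map order at 8 weeks, with each library as a point and Klf9KI left of Wt-Cre. Dark grey marks genes wholly, and light grey genes partly, within the stretch that has a copy on chromosome 1. mt-Atp8 and mt-Nd4l, both within it, have the lowest means, 41.5 and 315 in Klf9KI against 99.97 and 314 in Wt-Cre hearts.

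The 3 low genes lie in a stretch whose counts are uncertain. On mouse chromosome 1 (mm10, 24611535 to 24616197) the tables list 6 rows, Gm29216, Gm28661, Gm10925, Gm28437, Gm28438 and Gm28439, that lie in the reverse direction of mt-Co1, mt-Co2, mt-Atp6, mt-Co3, mt-Nd3 and mt-Nd4 with matching distances. This is a known nuclear copy of mitochondrial DNA, and by these coordinates it spans MT positions 6381 to 11043. Reads that fit both places could be split or dropped in counting, so the levels of the 6 protein genes wholly inside that stretch (mt-Co2, mt-Atp8, mt-Atp6, mt-Co3, mt-Nd3 and mt-Nd4l), of mt-Co1 and mt-Nd4, with 31.8 and 63.6% of their length in it, and of mt-Ts1, mt-Td, mt-Tk, mt-Tg and mt-Tr are uncertain. The 5 protein genes outside it are mt-Nd1, mt-Nd2, mt-Nd5, mt-Nd6 and mt-Cytb.

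The nuclear copies moved with the mitochondrial genes at 8 weeks. Together they took 0.434 ± 0.0457% of all counts in Klf9KI hearts and 0.905 ± 0.0922% in Wt-Cre hearts, without overlap, while at 1 week they took 0.311 against 0.301% and at 4 weeks 0.596 against 0.603%, with overlap. Gm28437, the copy of mt-Co3, had 767, 578 and 956 CPM in Klf9KI hearts, against 1902, 2487 and 2773 CPM in Wt-Cre hearts at 8 weeks. It fell with groups apart (log2 fold change -1.64, SE 0.2499, adjusted p = 0.00264), as did Gm28438 (-1.55), Gm28661 (-1.81) and Gm29216 (-1.23). Gm10925 (-0.84) and Gm28439 (-0.69) overlapped and did not pass. None was called at 1 or 4 weeks. Of the 5 protein genes outside the stretch, mt-Nd1, mt-Nd2 and mt-Cytb fell at 8 weeks, and adding the copies' counts to the genes they copy left the number of members called at 0, 10 and 14 at 1, 4 and 8 weeks.

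Among the nuclear genes, 5 lists covered the proteins that copy, transcribe, process and translate mitochondrial DNA and RNA, 111 genes in all with 108 tested at each age. At 1 week 1 of 108 rose, where 0.651% of all genes did (Letm1, an inner-membrane protein, log2 fold change 0.41, adjusted p = 0.0495), and it no longer passed without Klf9KI replicate 2 or 3 or without any of the Wt-Cre replicates. At 4 weeks 2 rose and 8 fell, and at 8 weeks 11 fell and none rose, against 1.68, 13.4 and 10.5% of all genes called at 1, 4 and 8 weeks. Calls in both directions together were thus no more frequent at 4 and 8 weeks than over all genes. Of all genes, 6.65% rose and 6.75% fell at 4 weeks, and 5.52% fell at 8 weeks. In the 4 lists where no gene passed at 1 week, the gene with the smallest p was Tfb1m, which methylates mitochondrial rRNA (-1.19, adjusted p = 0.0712), Tbrg4, an RNA-stability factor (0.40, adjusted p = 0.0682), the leucine synthetase Lars2 (-0.72, adjusted p = 0.280) and the nuclear receptor Esrrg (0.23, adjusted p = 0.562). The medians of the 108 were 0.084, 0.012 and -0.29 at 1, 4 and 8 weeks. At 4 weeks 1, 4 and 4 were called without Klf9KI replicate 1, 2 or 3. At 8 weeks 2 were called without Klf9KI replicate 1 or Wt-Cre replicate 1, 3 without Wt-Cre replicate 2 or 3, 20 without Klf9KI replicate 2 and 18 without Klf9KI replicate 3.

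Of the 25 genes for transcription and replication of mitochondrial DNA, 2 fell at 4 weeks and 1 at 8 weeks, where 6.75 and 5.52% of all genes did. Mgme1, a nuclease that trims ends of mitochondrial DNA, had 9.43, 7.70 and 7.08 CPM in Klf9KI hearts, against 20.4, 23.95 and 18.6 CPM in Wt-Cre hearts at 8 weeks. The groups were far apart (log2 fold change -1.37, SE 0.237, adjusted p = 0.00496), and at 4 weeks Mgme1 fell as well (log2 fold change -0.66, SE 0.165, adjusted p = 0.0220). Dguok, a kinase that supplies purine nucleotides for mitochondrial DNA, fell at 4 weeks (log2 fold change -0.61, SE 0.163, adjusted p = 0.0295). The polymerase gene Polrmt had 22.8 ± 2.08 CPM in Klf9KI hearts, against 24.9 ± 5.62 CPM in Wt-Cre hearts at 8 weeks, with overlap at all 3 ages. Tfam had 33.1, 35.5 and 27.5 CPM in Klf9KI hearts, against 42.7, 40.9 and 46.8 CPM in Wt-Cre hearts. All Klf9KI hearts were lower at 8 weeks and the difference did not pass (log2 fold change -0.44, SE 0.186, adjusted p = 0.167).

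Of the 36 genes tested for RNA processing and stability, 2 rose and 2 fell at 4 weeks and 3 fell at 8 weeks. Of all genes, 6.65% rose and 6.75% fell at 4 weeks and 5.52% fell at 8 weeks. Hsd17b10, a subunit of the ribonuclease P complex that cuts the front ends of tRNAs from mitochondrial precursors, had 62.9, 63.2 and 64.4 CPM in Klf9KI hearts, against 109, 89.98 and 119 CPM in Wt-Cre hearts at 4 weeks. The groups did not overlap (log2 fold change -0.74, SE 0.131, adjusted p = 0.00381). By 8 weeks it had 74.2, 48.3 and 63.1 CPM in Klf9KI hearts, against 171, 190.0 and 153 CPM in Wt-Cre hearts. Again every Klf9KI heart was lower, and it had the smallest adjusted p of the 108 genes (log2 fold change -1.47, SE 0.206, adjusted p = 0.00155). Fastk, a mitochondrial RNA-binding protein whose isoform in the organelle stabilises mt-Nd6 mRNA, fell at 4 weeks (log2 fold change -0.65, SE 0.137, adjusted p = 0.00938) and at 8 weeks (log2 fold change -0.89, SE 0.196, adjusted p = 0.0166). Rpusd4, a pseudouridine synthase that acts on mitochondrial rRNA, fell at 8 weeks (log2 fold change -0.98, SE 0.235, adjusted p = 0.0243). Nsun3, which methylates the mitochondrial methionine tRNA, rose at 4 weeks (log2 fold change 0.80, SE 0.210, adjusted p = 0.0280), as did Pnpt1, an RNA-degrading exonuclease (log2 fold change 0.58, SE 0.165, adjusted p = 0.0384). Lrpprc, which binds and stabilises mitochondrial mRNAs, had 89.3, 185 and 75.1 CPM in Klf9KI hearts, against 152, 164 and 103 CPM in Wt-Cre hearts at 8 weeks, with overlap, and was not called at any age.

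Of 18 tested genes for translation factors and membrane insertion, Rmnd1 fell at 4 weeks (log2 fold change -0.53, SE 0.139, adjusted p = 0.0279) and Rmnd1, Ptcd3, Mtrf1 and Mrrf fell at 8 weeks, with log2 fold changes of -1.06, -0.70, -0.96 and -0.69. Mtrf1 and Mrrf act in the release and recycling of the mitochondrial ribosome, and Ptcd3 is one of its small-subunit proteins. Of the 20 aminoacyl-tRNA synthetase genes and their partners, Qrsl1, a subunit of the amidotransferase that makes glutamine tRNA, fell at 4 weeks (-0.53) and 8 weeks (-1.11), and the tyrosine synthetase Yars2 fell at 8 weeks (-0.86). Among 9 transcriptional regulators of these genes, Ppargc1a, the coactivator of mitochondrial biogenesis, had 93.8, 142 and 107 CPM in Klf9KI hearts, against 163, 377 and 271 CPM in Wt-Cre hearts at 4 weeks. It fell then (log2 fold change -1.24, SE 0.284, adjusted p = 0.0203) and at 8 weeks (log2 fold change -0.81, SE 0.197, adjusted p = 0.0248). Ppara, a nuclear receptor for fatty acids, fell at 4 weeks (-1.12). Beside the counts of these 3 lists, 6.75% of all genes fell at 4 weeks and 5.52% at 8 weeks.

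**Figure D5:**
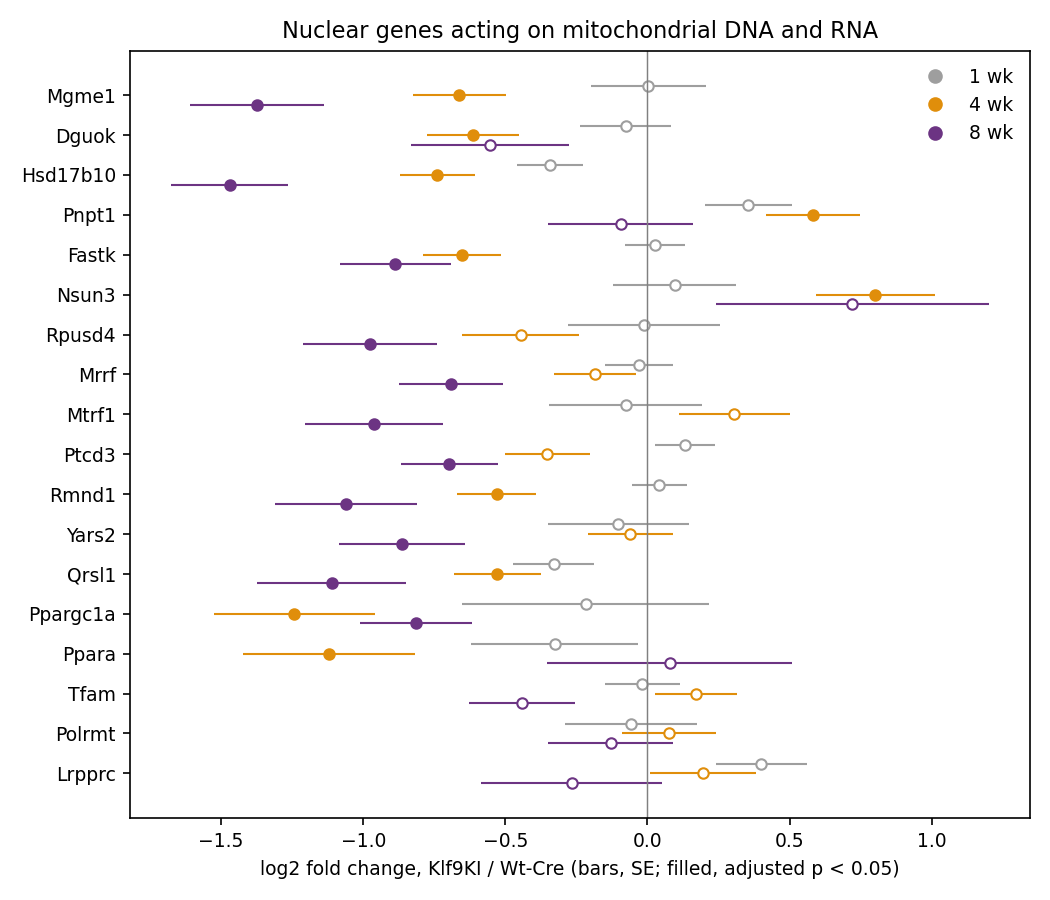
Log2 fold change (Klf9KI over Wt-Cre) with bars of 1 SE at 1, 4 and 8 weeks for the nuclear genes of the 5 lists that were called at 4 or 8 weeks, and for Tfam, Polrmt and Lrpprc. Filled points passed an adjusted p of 0.05. Hsd17b10 and Mgme1 lie lowest at 8 weeks, at -1.47 and -1.37, and Nsun3 and Pnpt1 are the genes that rose at 4 weeks.

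Chromatin bound by Klf9 gave no region on mitochondrial DNA among the 5238 merged regions of the authors' table. Whether reads on mitochondrial DNA were kept when the regions were called is not stated, so this does not show an absence of binding. At nuclear genes of the 5 lists, 36 of 111 had a region within 1 kb of the gene start (32.4%), and 36 of the 107 that were tested and listed as protein-coding did (33.6%), where 29.9% of nuclear protein-coding genes tested at 8 weeks and 30.1% of those at 4 weeks did. The list for transcription and replication of mitochondrial DNA had 13 of 25 (52.0%), among them Tfb1m, Tfb2m, Polg2, Top1mt, Dguok and Mgme1, and the list for RNA processing had 7 of 37 (18.9%). Of the list genes that fell, 7 of 8 had such a region at 4 weeks (87.5%, where 39.7% of the nuclear protein-coding genes that fell did) and 6 of 11 at 8 weeks (54.5%, where 31.7% of such genes did). A region counted where either the sham or the TAC library had it. Of the list genes that fell, Rmnd1 and Ptcd3 had such a region after TAC alone and the others in both libraries. In the list for transcription and replication, Slc25a33 and Tk2 had it after TAC alone, and Rnaseh1 and Top1mt after sham alone. With 1 library per condition these are counts without a test.

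The promoters of the 2 list genes with the largest falls at 8 weeks, Hsd17b10 and Mgme1, both with a Klf9 region at the start, are shown as RefSeq gives them on GRCm38.p6. Each is the 250 bases before the start on the plus strand, 5′ to 3′, for Hsd17b10 at chrX:152001646-152001895 and for Mgme1 at chr2:144270654-144270903. Capitals mark CACCC or GGGTG, the core of the boxes that Krüppel-like factors are known to bind, and GGGCGG or CCGCCC, a GC box.
Hsd17b10: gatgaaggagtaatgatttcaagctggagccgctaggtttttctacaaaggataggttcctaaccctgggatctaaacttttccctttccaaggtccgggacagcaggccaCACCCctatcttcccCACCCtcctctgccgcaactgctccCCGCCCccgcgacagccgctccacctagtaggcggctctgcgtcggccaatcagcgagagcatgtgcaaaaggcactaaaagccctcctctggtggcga
Mgme1: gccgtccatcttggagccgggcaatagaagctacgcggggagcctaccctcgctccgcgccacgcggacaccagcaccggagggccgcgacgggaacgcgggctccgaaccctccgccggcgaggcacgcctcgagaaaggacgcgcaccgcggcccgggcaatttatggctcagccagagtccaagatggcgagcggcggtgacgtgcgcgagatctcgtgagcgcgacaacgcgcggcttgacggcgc
The Hsd17b10 promoter held 2 copies of CACCC and 1 of CCGCCC, and the Mgme1 promoter held neither motif on either strand in this window. Of 32851 promoters of this length 52.0% held CACCC or GGGTG and 32.7% held GGGCGG or CCGCCC, so a match is common and is a description of letters alone. The Klf9 region at Hsd17b10 spans 152001646 to 152002253 on chromosome X in the authors' table, with the authors' signal at 16.7 after TAC and 19.5 after sham, and the region at Mgme1 spans 144270686 to 144271088 on chromosome 2, with 21.9 after TAC and 18.8 after sham. How that signal was scaled between the libraries is not stated, so no difference is read from it.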

How the data were processed

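Heart RNA of 18 libraries, 3 per genotype at 3 ages, and 2 Klf9 chromatin libraries were used. The values are raw read counts per gene that the authors deposited in 1 table per age; per the submitters' processing notes reads were handled with HISAT2 2.0.5, featureCounts 1.5.0-p3, fastp, StringTie 1.3.3b, BWA, MACS2 2.1.0 and DESeq2 1.20.0 on mm10, with no roles or options given. The tables also carry the authors' deposited log2 fold changes and p-values, of which none is printed. The chromatin table holds the authors' regions, merged over both libraries, with a signal (average coverage) of unstated scaling, per the file headers. Per the labels' protocols RNA was poly-A selected.

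The members, gene lists and comparisons were chosen with earlier results of these data known. Each age was tested alone on its whole table with edgeR 4.0.16 in R 4.3.3 (filterByExpr, TMM scaling, robust quasi-likelihood test, Benjamini-Hochberg adjustment over all genes tested, threshold 0.05), after tests on simulated data. SE is the size of the log2 fold change divided by the square root of F, and CPM use TMM-scaled library sizes. Ages were compared in 1 fit of 18 libraries over 21463 genes present in all 3 tables (16660 tested). Library totals ran from 12086856 to 32855383 counts. Permutation tests planned for summed shares are not given, since a share sums the members. Named genes are all protein and rRNA genes, tRNAs that were called or among the 4 highest, up to 4 called nuclear genes per list and age or the one with the smallest p, and Tfam, Polrmt, Lrpprc and Ppargc1a; others were chosen after their values were seen. No source says whether libraries came from separate litters, so p-values measure the spread between these samples. Same-numbered libraries of both genotypes correlated at -0.118 to 0.232. At 8 weeks each such pair lay above the best other pair, at 0.0632, 0.101 and 0.144 against 0.0331, -0.0139 and -0.0342. Below it lay pairs 1 and 3 at 1 week (0.0788 against 0.150, -0.118 against 0.138) and pair 2 at 4 weeks (0.0289 against 0.0891). Whether replicate numbers pair the libraries is therefore not settled. Alternatives included DESeq2 1.42.0, other scalings, no filter, left-out libraries and counts of nuclear copies added.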

Additional observations from a re-analysis of the deposited data

Results flagged for a closer look

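The genotype effect (Klf9KI over Wt-Cre) differed between 8 weeks and 1 week in 15 mitochondrial genes, by edgeR's interaction test over the 18 libraries with Benjamini-Hochberg adjustment. All 15 differences were negative, so that the effect was lower at 8 weeks. Because age and any batch that follows age cannot be told apart, the difference between ages may be one between batches as well.

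Of the complex I genes, mt-Nd1 differed by -1.30 (SE 0.211, adjusted p = 0.000661), mt-Nd2 by -1.15 (SE 0.237, adjusted p = 0.00427) and mt-Nd4 by -1.15 (SE 0.216, adjusted p = 0.00201) on the log2 scale. mt-Cytb differed by -0.99 (SE 0.208, adjusted p = 0.00489). In complex IV the values were -1.11 for mt-Co1 (SE 0.220, adjusted p = 0.00307), -1.21 for mt-Co2 (SE 0.365, adjusted p = 0.0400) and -1.66 for mt-Co3 (SE 0.412, adjusted p = 0.0147). mt-Atp6 of the ATP synthase differed by -1.36 (SE 0.404, adjusted p = 0.0396).

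Both rRNAs were among the 15, mt-Rnr1 at -1.61 (SE 0.377, adjusted p = 0.00994) and mt-Rnr2 at -1.34 (SE 0.399, adjusted p = 0.0393). The tRNA rows were mt-Ti at -3.08 (SE 0.866, adjusted p = 0.0283), mt-Th at -2.64 (SE 0.459, adjusted p = 0.00115), mt-Tl2 at -1.94 (SE 0.472, adjusted p = 0.0147), mt-Ts2 at -1.64 (SE 0.435, adjusted p = 0.0203) and mt-Tp at -0.71 (SE 0.214, adjusted p = 0.0393).

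With sex as a covariate mt-Rnr1, mt-Rnr2, mt-Co3, mt-Ts2, mt-Tl2 and mt-Tp no longer passed, and without the filter on low counts mt-Rnr2 and mt-Atp6 did not. mt-Nd5, mt-Nd6, mt-Nd3, mt-Nd4l and mt-Atp8 were not called in this test.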

How the results depend on the processing

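No called gene changed direction under any alternative. The share of all genes called under each alternative is not given here, so a change in a count may be one over the whole table. Leaving out 1 library gave 0 to 2, 6 to 11 and 1 to 18 members called at 1, 4 and 8 weeks, 0 to 4, 2 to 9 and 0 to 4 relative to the protein genes, and 0 to 1, 1 to 13 and 2 to 20 nuclear list genes. For age it gave 0 to 8 in Klf9KI hearts between 8 and 4 weeks, and for the genotype effect 0 to 2 at 4 minus 1 week, 9 to 17 at 8 minus 1 week and 0 to 1 at 8 minus 4 weeks. Without the filter 1 member was called at 1 week (1 relative to the protein genes, 5 at 8 weeks) and 5 list genes at 1 week. DESeq2's Wald test called 1 member and 3 list genes at 1 week and 19 list genes at 8 weeks, 8 members in Klf9KI hearts between 8 and 4 weeks (its size factors in edgeR gave 1), 5 in the genotype effect at 4 minus 1 week and 2 at 8 minus 4 weeks.

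A sex covariate gave 0 list genes at 1 week, as did leaving out both libraries with Xist, 8 members in Klf9KI hearts between 4 and 1 week, and 9 in the genotype effect at 8 minus 1 week. All 18 libraries in 1 fit gave 2 and 22 members at 4 and 8 weeks and 0, 4 and 30 list genes at 1, 4 and 8 weeks (29 of the 30 lower). These counts stand without the share of all genes called in that fit, so they may reflect a change over the whole table. With the replicate number as a block, a pairing the labels do not support, 22 members were called at 8 weeks, 6 relative to the protein genes, 1 in the genotype effect at 4 minus 1 week, and 0 list genes at 1 week. The total of the 5 protein genes outside the copied stretch left 1 member at 8 weeks. Without the 100 highest nuclear genes the share differed by -11.0 points at 8 weeks and by -13.2 at 8 minus 1 week. Those shares are of a smaller total. As a ratio of the Klf9KI to the Wt-Cre mean at 8 weeks they gave 0.695, close to the 0.699 with all genes. The cause of the changes in the counts of calls was not tested. Of 32 results on protein and rRNA genes that were not called, 15 changed sign in at least 1 alternative and 4 passed the threshold in at least 1, mt-Rnr2 at 8 weeks in 4, and the rarest tRNA rows, with 24 to 114 counts in all, allow no statement.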

Other observations

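Klf9 itself changed with age in the Wt-Cre hearts, in the fit of all 18 libraries. It rose at 4 against 1 week (log2 fold change 2.94, SE 0.181, adjusted p = 7.88e-10) and fell at 8 against 4 weeks (log2 fold change -1.15, SE 0.171, adjusted p = 0.000346), by edgeR with Benjamini-Hochberg adjustment. Klf9KI hearts showed no such called change between 8 and 4 weeks (log2 fold change -0.36, SE 0.167, adjusted p = 0.178). Over the same steps the mitochondrial share in Wt-Cre hearts was 12.2 ± 1.05, 22.2 ± 2.41 and 28.7 ± 0.985% at 1, 4 and 8 weeks (SD, n = 3 each). How age and sequencing batch contribute cannot be told apart.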
